A study of Mus musculus with 2 samples.

Results

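The annexins described here are the 9 genes Anxa1 to Anxa8 and Anxa11, taken by symbol from a table of 34295 mouse genes, and all 9 were found, each on a single row. The table holds an RNA library of embryonic fibroblasts and one of macrophages derived from bone marrow, both wild type and from C57BL/6J mice, with no genetic change and no treatment named in the labels beyond the culture media. The fibroblasts were grown from embryos of stage E13.5 to E14.4 after the head and red organs were taken off, were sorted to remove cells with CD45, CD11b or the macrophage protein encoded by Adgre1 on their surface, and were used at passage 4 to 7, with 100000 cells collected. The macrophages were differentiated for 6 days in medium with 30% L929-conditioned medium, which the fibroblast medium did not hold, and 750000 cells were collected; both media held 10% serum. Growth factor and receptor expression in these cells was the subject of the series; the sources used here do not say how many embryos or mice entered each library.

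Annexins are cytosolic proteins that bind acidic membrane lipids when calcium rises. Each has a conserved core of repeats that holds calcium against the lipid head groups and a variable amino-terminal tail that binds partner proteins, often of the S100 family. They are known for organising membranes during vesicle traffic and repair of the plasma membrane, and outside the cell annexin A1 restrains leukocytes, annexin A2 gathers plasminogen and annexin A5 coats exposed phosphatidylserine.

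Values are transcripts per 1000000 transcripts (TPM), which are corrected for transcript length and can be compared between genes of a library. The fibroblast library summed to 999545 and the macrophage library to 999609, where 12561 and 11429 genes stood at 1 TPM or more. Read depth is lost in TPM and unknown here, which leaves no way to give an interval or a detection limit. With 1 library per cell type there is no replicate error, test or p-value, and cell type cannot be told apart from medium, cell number and preparation. The rule used throughout counts a gene as higher in one cell type from a 4-fold ratio of TPM plus 1 upward, given a level of 5 TPM or more there. The cell labels were checked on marker genes: all 12 macrophage markers passed this rule toward the macrophages, with summed levels of 25772 TPM against 39.3, and all 12 fibroblast markers toward the fibroblasts, with 13536 TPM against 29.9. The macrophage markers include Ptprc, Itgam and Adgre1, which encode the proteins CD45 and CD11b and the Adgre1 protein used in the sort. Their low fibroblast levels are therefore no independent check. Because RNA was taken from whole cultures, fewer cells with a transcript and less of it per cell cannot be told apart.

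The 9 genes lie on 7 chromosomes, 3 of them on chromosome 14. In GENCODE M21, an annotation of GRCm38, Anxa8 spans chr14:34085981-34100571 and Anxa11 chr14:25842156-25886804, both on the plus strand, and Anxa7 spans chr14:20455260-20480133 on the minus strand. Anxa2 (chr9:69453620-69491795) and Anxa3 (chr5:96793339-96845966) are on the plus strand. Anxa1 (chr19:20373428-20390944), Anxa4 (chr6:86736840-86793584), Anxa5 (chr3:36448923-36475894) and Anxa6 (chr11:54979108-55033445) are on the minus strand. The longest coding sequence was 957 bases for Anxa4 and Anxa5, 969 for Anxa3, 981 for Anxa8, 1017 for Anxa2 and 1038 for Anxa1. It was 1455 bases for Anxa7 and 1509 for Anxa11, whose proteins carry long tails, and 2019 bases for Anxa6, whose core is duplicated.

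Sequences upstream of 4 members are shown here because these genes stand for the patterns below: Anxa8, above 1 TPM in fibroblasts only, Anxa4, the nearest to the 4-fold limit on the macrophage side, and Anxa5 and Anxa2, which led the family in macrophages and in fibroblasts. They come from RefSeq promoters on GRCm38.p6, are written 5′ to 3′ on the gene's strand, and end before the start of the gene in both RefSeq and GENCODE. Capitals mark CG dinucleotides.
Anxa8, chr14:34085729-34085978, plus strand: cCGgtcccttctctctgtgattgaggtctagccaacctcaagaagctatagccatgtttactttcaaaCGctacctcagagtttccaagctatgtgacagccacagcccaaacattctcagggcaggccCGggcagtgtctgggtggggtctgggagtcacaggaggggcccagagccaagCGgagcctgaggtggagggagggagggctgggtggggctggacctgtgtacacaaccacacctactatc
Anxa4, chr6:86793585-86793834, minus strand: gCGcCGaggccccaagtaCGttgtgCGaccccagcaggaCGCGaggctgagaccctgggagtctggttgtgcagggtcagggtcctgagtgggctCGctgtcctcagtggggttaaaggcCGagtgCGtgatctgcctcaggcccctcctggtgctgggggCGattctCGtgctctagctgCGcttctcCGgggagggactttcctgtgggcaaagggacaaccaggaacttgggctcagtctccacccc
Anxa5, chr3:36475895-36476137, minus strand: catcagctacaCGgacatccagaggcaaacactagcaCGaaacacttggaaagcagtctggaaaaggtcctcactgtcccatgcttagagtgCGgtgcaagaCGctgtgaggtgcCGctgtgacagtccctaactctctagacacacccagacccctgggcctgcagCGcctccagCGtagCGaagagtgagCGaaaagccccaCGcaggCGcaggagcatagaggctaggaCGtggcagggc
Anxa2, chr9:69453433-69453619, plus strand: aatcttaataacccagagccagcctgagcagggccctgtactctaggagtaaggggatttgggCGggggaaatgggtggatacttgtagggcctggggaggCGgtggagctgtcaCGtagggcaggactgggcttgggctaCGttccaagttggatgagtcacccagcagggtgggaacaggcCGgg

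The Anxa8 window held 4 CG dinucleotides in 250 bases, against 13 in the Anxa4 window of the same length. Over the full 250 bases before the RefSeq start, the ratio of observed to expected CG was 0.19 for Anxa8. It was 0.50 for this Anxa4 window, 0.60 for Anxa5, 0.42 for Anxa2 and 0.84 for Anxa11, beside a median of 0.37 over 32851 promoter windows of the same length. Anxa1, abundant in both libraries, had the lowest ratio of the members' windows, 0.15, but its window lies inside the gene as annotated by GENCODE. Anxa4 and Anxa7 each had a second RefSeq start, with ratios of 0.20 and 0.19, the Anxa4 window again inside the gene. In all, 7 of the 9 members matched a RefSeq promoter entry.

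Both strands of the 250-base windows were searched for the TATA box written TATAAA, which 12.4% of all windows held, and the GC box written GGGCGG, held by 32.7%. The AP-1 site written TGANTCA was in 6.75% of all windows, and the CCAAT box in 33.8%. The TATA box letters were found in the windows of Anxa1, 32 to 27 bases before the RefSeq start, and of Anxa2, 17 to 12 bases before it. The Anxa2 window also held the AP-1 letters, 95 to 89 bases before the RefSeq start, and 3 GC boxes. The GENCODE start lies 273 bases upstream of the RefSeq start for Anxa1, 63 for Anxa2 and 192 for an Anxa7 start. Both TATA matches are therefore inside the gene as annotated by GENCODE, and the Anxa2 match is not in the sequence shown. The same holds for the Anxa2 GC boxes 48 to 43 and 24 to 19 bases before the RefSeq start. GC boxes were present in the windows of Anxa11 and Anxa7 too, and the CCAAT box in none of the members' windows. None of the 4 motifs was present in the Anxa8, Anxa4 and Anxa5 windows. These are letter matches and not binding sites.

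Of the 9 annexins, 1 was higher in the fibroblast library and none in the macrophage library. Among the 11191 genes at 5 TPM or more in either library, 14.3% were higher in fibroblasts and 8.77% in macrophages, together 23.1%, so the share of annexins past the rule was not above that of all genes. The other 8 annexins stood at 5 TPM or more in both libraries, as did 8363 of the 11191 genes (74.7%). Shares of all genes given below are likewise of these 11191. The gene lists below may also hold genes under 5 TPM in both libraries, which cannot pass the rule. The median log2 ratio of TPM plus 1, fibroblast over macrophage, was 0.48 over the 9 annexins, 0.22 without Anxa8, and 0.28 over all 13606 genes at 1 TPM or more. By the TPM themselves, 5 annexins stood higher in fibroblasts and 4 in macrophages.

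**Figure D1:**
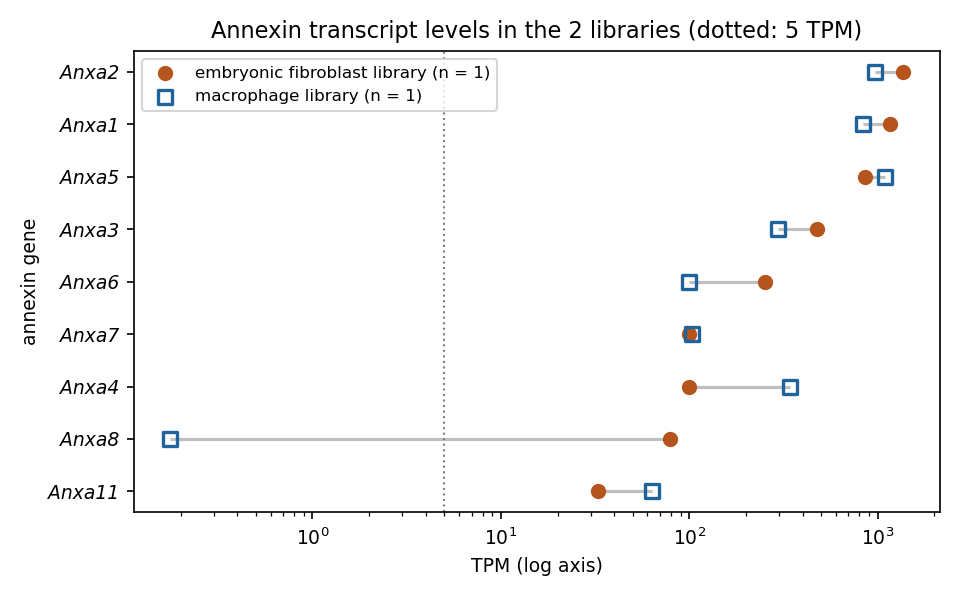
TPM of each annexin gene on a log axis in the fibroblast library (filled circles) and the macrophage library (open squares), 1 library each, with a dotted line at 5 TPM. The symbols of 8 genes lie close together between 32.6 and 1365 TPM, and those of Anxa8 lie at 78.9 and 0.176 TPM.

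Anxa8, an annexin known from epithelia, had 78.9 TPM in fibroblasts versus 0.176 in macrophages. No fold is given over a level this near 0. The log2 ratio of TPM plus 1 was 6.09, a value that depends on the added constant, and it ranked 182 among the 1602 genes called higher in fibroblasts. In the fibroblast library it was in the top 16.8% of genes at 1 TPM or more, and in the macrophage library it was below that level. Of 8 epithelial markers, 1 was higher in fibroblasts, where 14.3% of all genes were: Krt7 at 5.28 TPM against 0.0748. The 8 summed to 7.65 TPM against 0.722. Krt18 at 1.08 TPM against 0.0747 and Cldn7 at 0.959 against 0 also leaned toward fibroblasts. Cdh1 at 0.178 against 0.290 and Krt8 at 0.0546 against 0.283 leaned toward macrophages. The epithelial adhesion gene Epcam stood at 0.0479 TPM in fibroblasts and Krt14 was listed at 0 in both libraries. The part of epithelial cells in the Anxa8 value was not tested. Anxa8 lies within the span of A630023A22Rik on the opposite strand, with 1.62 TPM in fibroblasts and a listed 0 in macrophages.

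Anxa4 showed the largest difference toward macrophages. Annexin A4 binds membranes of secretory epithelia and lowers chloride conductance there. It had 99.7 TPM in fibroblasts versus 343 in macrophages, a 3.44-fold difference with a log2 ratio of -1.77, which is short of the 4-fold limit. It was in the top 13.2% of genes at 1 TPM or more in fibroblasts and in the top 4.00% in macrophages.

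Anxa6 stood on the opposite side. Annexin A6, the member with the duplicated core, is known from endosomes and from cholesterol-rich membranes. It had 253 TPM in fibroblasts versus 99.6 in macrophages, a 2.54-fold difference with a log2 ratio of 1.34. Anxa6 and Anxa4 thus changed places: 253 TPM against 99.7 in fibroblasts, and 99.6 against 343 in macrophages. At a 2-fold limit with the same 5 TPM minimum, these genes and Anxa8 were the 3 annexins that differed, 2 toward fibroblasts and 1 toward macrophages. Of the 11191 genes at 5 TPM or more in either library, 38.7% passed that limit, 23.6% toward fibroblasts and 15.2% toward macrophages.

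**Figure D2:**
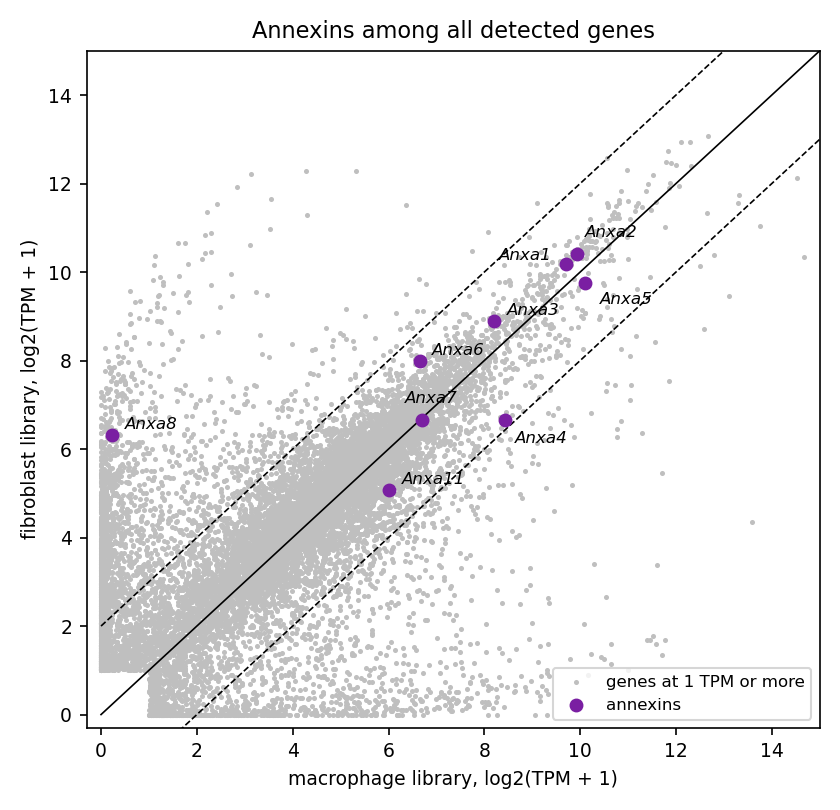
Each point is a gene at 1 TPM or more in either library, with log2(TPM + 1) in macrophages on the horizontal and in fibroblasts on the vertical axis. Annexins are in purple, the solid line marks equal values and the dashed lines the 4-fold limits. Anxa8 alone lies outside them, and Anxa4 is just inside the macrophage limit.

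Anxa2, Anxa1 and Anxa5 were the most abundant members in both libraries and held 76.5% and 76.2% of the summed annexin TPM in fibroblasts and macrophages. Anxa2, which joins with S100a10 in a complex under the plasma membrane, had 1365 TPM in fibroblasts versus 972 in macrophages. Anxa1, the glucocorticoid-regulated inhibitor of leukocyte recruitment, stood at 1161 and 831 TPM. Anxa5, whose protein is the common laboratory probe for dying cells, had 860.1 TPM in fibroblasts versus 1098 in macrophages. Anxa2 and Anxa1 were thus 1.40-fold higher in fibroblasts, each, and Anxa5 was 1.28-fold higher in macrophages, with no replicates to give a spread for differences of this size. All 3 genes were in the top 1.67% of each library's genes at 1 TPM or more.

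The order of the levels was Anxa2, Anxa1, Anxa5, Anxa3, Anxa6, Anxa7, Anxa4, Anxa8 and Anxa11 in fibroblasts. In macrophages it was Anxa5, Anxa2, Anxa1, Anxa4, Anxa3, Anxa7, Anxa6, Anxa11 and Anxa8. Neighbouring levels were often close: Anxa7 stood 1.00-fold over Anxa4 in fibroblasts and 1.03-fold over Anxa6 in macrophages, and Anxa2 stood 1.18-fold over Anxa1 in fibroblasts. The widest steps outside Anxa8 were 2.53-fold from Anxa6 to Anxa7 in fibroblasts and 2.87-fold from Anxa3 to Anxa7 in macrophages. With 1 library each there is no spread by which neighbours could be separated.

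**Figure D3:**
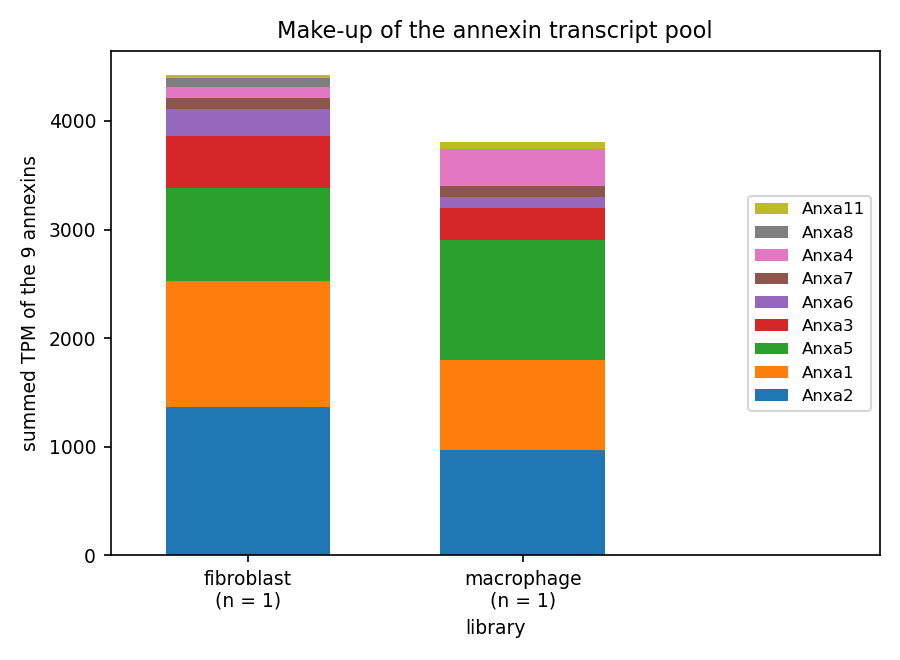
Stacked bars of the TPM of the 9 annexins in each library (n = 1 each), from Anxa2 at the bottom to Anxa11 at the top in the order of the fibroblast levels. The bars reach 4425 TPM in fibroblasts and 3806 TPM in macrophages; Anxa4 takes 2.25% and 9.02% of them, and Anxa6 5.72% and 2.62%.

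The summed annexin TPM differed 1.16-fold, less than 8 of its 9 members did. It came to 4425 TPM in fibroblasts and 3806 TPM in macrophages, which is 0.443% and 0.381% of all transcripts. Median-of-ratios scaling of the libraries brought the sums closer, to 4154 TPM in fibroblasts and 4054 TPM in macrophages. Scaling that set aside 82 genes, mitochondrial or among the most abundant, gave 5676 and 5351 TPM. The size of the difference in the sum therefore depends on the scaling. Anxa2 held 30.8% of the fibroblast and 25.5% of the macrophage pool, and Anxa5 19.4% and 28.9%. Per TPM of Anxa5, Anxa4 stood at 0.116 in fibroblasts and 0.312 in macrophages, and Anxa6 at 0.294 and 0.0907; such ratios within a library do not depend on how the libraries are scaled.

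The remaining 3 members stood in both cell types. Anxa3, an annexin abundant in neutrophils, had 475 TPM in fibroblasts versus 295 in macrophages, 1.61-fold higher in fibroblasts. Neutrophil markers were present on the other side: 4 of 8 were higher in macrophages, where 8.77% of all genes were, with summed levels of 449 TPM against 1.93. Most of that sum came from S100a9 at 268 TPM and S100a8 at 157 TPM. Ltf and Camp, also past the rule, stood at 12.0 and 5.17 TPM, Mpo at 2.83 TPM, and Ly6g was listed at 0 in both libraries. The part of these markers' cells in the Anxa1 and Anxa3 values was not tested. Anxa7, known as synexin, a protein of secretory granule fusion, stood at 100.2 and 103 TPM, the closest values of any member. Anxa11, which links RNA granules to lysosomes, was the lowest member in fibroblasts at 32.6 TPM and stood at 63.5 TPM in macrophages, a 1.95-fold difference.

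The Anxa11 value is less certain than the others. Of its 4160 distinct sequence words of 31 bases in the GENCODE transcripts, 17.2% also occurred in transcripts of other genes. Most were in the pseudogenes Gm2260, with 627 words, and Gm2274, with 572, so that reads could be divided among them. Gm2260 had 10.2 TPM in fibroblasts versus 20.0 in macrophages, a 1.97-fold difference, and Gm2274 had 0.00018 TPM and 0. With the values of the pseudogenes added, Anxa11 came to 42.8 and 83.5 TPM, still 1.95-fold higher in macrophages. No member shared such a word with another member. Anxa1, Anxa5, Anxa6 and Anxa8 shared none with any gene, and Anxa7, Anxa2, Anxa3 and Anxa4 shared 0.196%, 1.86%, 2.75% and 4.42%. Anxa1, Anxa2, Anxa4, Anxa8 and Anxa11 overlap a gene on the opposite strand. The kit keeps strand, but the sources used here do not say whether the counting used it. The words were compared on both strands, so Anxa1 and Anxa8 shared none with the annotated transcripts of the gene they overlap.

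Each annexin's difference kept its direction under 2 other scalings of the libraries, but neither scaling could have turned one. Both moved the ratios other than that of Anxa8 toward macrophages. That shift was smaller than 0.48, the log2 ratio of Anxa1 and the smallest toward fibroblasts. Under those scalings and with 0.1 or 5 TPM added in place of 1, Anxa8 was the sole annexin past the 4-fold limit.

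**Figure D4:**
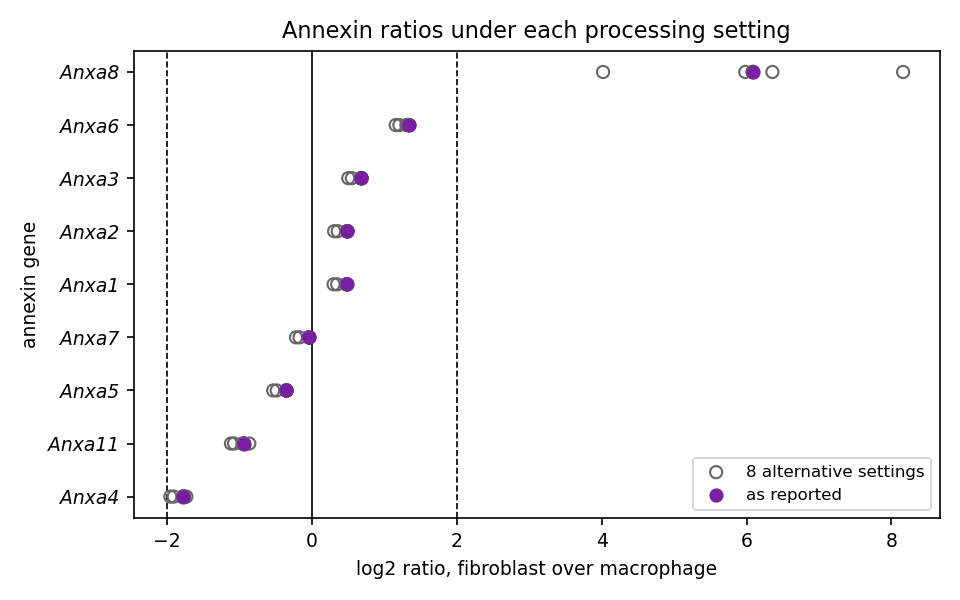
Log2 ratio of each annexin, fibroblast over macrophage, as reported (filled) and under 8 other processing settings (open), with dashed lines at the 4-fold limits. Only the pseudocounts and scalings can move a ratio. The minimums, the fold limit and the highest single row leave it as reported. Anxa8 runs from 4.02 to 8.16 and stays past the limit; Anxa4 runs from -1.95 to -1.73 and stays inside it.

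The annexin family genes outside these 9 were near or at 0. Anxa9 had 0.797 TPM in fibroblasts versus 3.89 in macrophages, and Anxa13, known from the intestine and kidney, had 0.118 TPM in fibroblasts and a listed 0 in macrophages. None of the 3 genes Anxa9, Anxa10 and Anxa13 reached 5 TPM.

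The genes with levels most like those of the 3 leading members were found by distance. The distance was taken over log2(TPM + 1) in the 2 libraries among 21529 protein-coding genes. Nearest to Anxa2 were Rpl23 at 1397 and 965 TPM and Rpl31 at 1298 and 1003 TPM, in fibroblasts and macrophages, both of the large ribosomal subunit. Nearest to Anxa1 were Serf2 at 1166 and 835 TPM and the mitochondrial gene mt-Nd6 at 1165 and 864 TPM. Nearest to Anxa5 were Arhgdia at 807 and 1007 TPM, and the translation factor gene Eif4a1 at 776 and 989 TPM. A likeness over 2 libraries is loose.

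Among 10 genes of annexin partner proteins, all 10 were detected at 1 TPM or more, 2 passed the rule toward fibroblasts and none toward macrophages, and the median log2 ratio was 0.45 beside 0.28 over all genes. The shares of all genes past the rule were 14.3% and 8.77%. S100a10, whose protein binds the tail of annexin A2, had 446 TPM in fibroblasts versus 653 in macrophages, opposite in direction to Anxa2. Per TPM of Anxa2 this was 0.327 for fibroblasts and 0.672 for macrophages, 2.06-fold apart. S100a11, whose protein binds the tail of annexin A1, had 2997 TPM in fibroblasts versus 546 in macrophages, a 5.49-fold difference. Per TPM of Anxa1 this was 2.58 and 0.657, so S100a11 transcripts outnumbered those of Anxa1 in fibroblasts and not in macrophages. S100a6, whose protein binds annexins A2 and A11, stood at 6115 and 1499 TPM, and its log2 ratio of 2.03 was just past the 4-fold limit of 2; with median-of-ratios scaling of the libraries it was 1.85 and no longer past it.

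**Figure D5:**
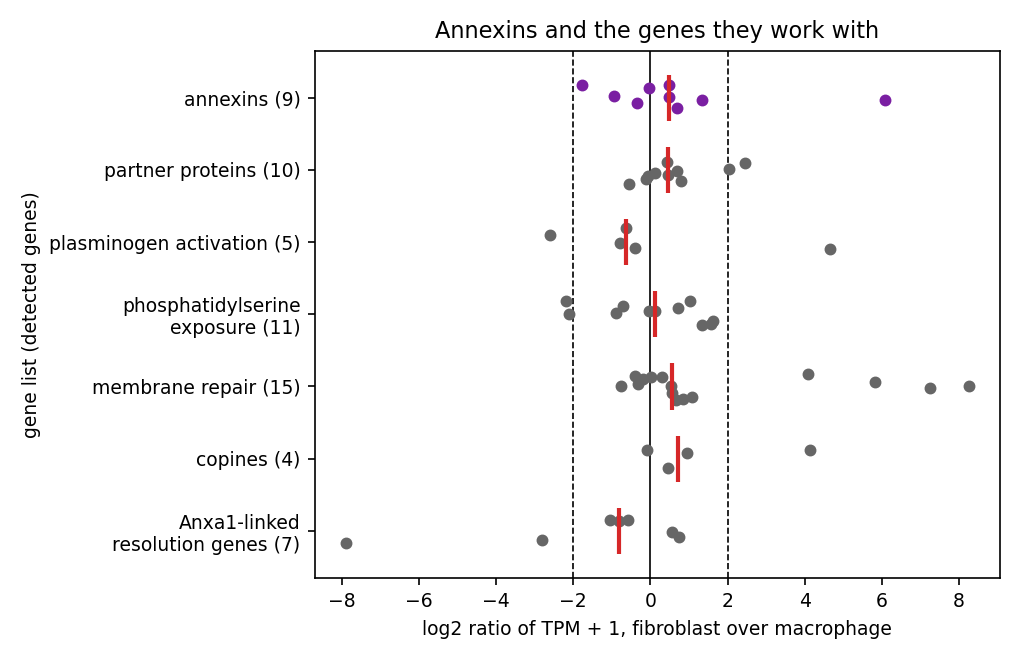
Log2 ratio of TPM plus 1, fibroblast over macrophage, of each gene at 1 TPM or more in 7 gene lists, with the number of such genes in brackets. Red bars are medians, which run from -0.81 to 0.70, and dashed lines the 4-fold limits; points are spread vertically for sight only.

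Genes of the formyl peptide receptor family, to which the annexin A1 receptor belongs, were low or listed at 0. Of 7 formyl peptide receptor genes, all 7 were listed at 0 in fibroblasts and 5 in macrophages. Fpr2, which encodes the receptor through which annexin A1 acts on leukocytes, stood at 1.07 TPM in macrophages and Fpr1 at 0.556 TPM. Among 8 genes grouped here with Anxa1 under the ending of inflammation, a link not tested in these data, 7 were detected. Of these, 2 passed the rule toward macrophages and none toward fibroblasts, and the median log2 ratio was -0.81. Of all genes, 8.77% passed it toward macrophages, and the median over all genes at 1 TPM or more was 0.28. The genes past it were Alox5ap, the helper of leukotriene and lipoxin synthesis, at 1487 TPM in macrophages against 5.30, and Alox5, the lipoxygenase itself, at 6.77 TPM against 0.112, a low level that did not pass the rule with 5 TPM added.

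Annexin A2 gathers the proteins of plasminogen activation at the cell surface. Of 7 genes of that process, 5 were detected and 1 passed the rule in each direction, where 14.3% of all genes did so toward fibroblasts and 8.77% toward macrophages. Their median log2 ratio was -0.64, that of all genes 0.28. The tissue activator gene Plat, whose protein is held by annexin A2, had 27.7 TPM in fibroblasts versus 0.136 in macrophages. The urokinase gene Plau had 120 TPM in fibroblasts versus 739 in macrophages, 6.16-fold higher in macrophages. Plat and Plau were thus higher in different libraries, while Anxa2 stood at 1365 and 972 TPM.

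Genes that place phosphatidylserine, the lipid bound by annexin A5, on the cell surface or keep it inside had a median log2 ratio of 0.12, beside 0.28 over all genes. Of 13 such genes, 11 were detected, and 2 passed the rule toward macrophages, where 8.77% of all genes did, and none toward fibroblasts. The genes past the rule were low: the flippase gene Atp8a1 at 8.61 TPM in macrophages against 1.21, and the scramblase family gene Plscr4 at 5.95 against 0.534. Both had log2 ratios close to the limit, -2.12 and -2.18, and neither passed it with 5 TPM added in place of 1.

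In the list of plasma membrane repair, a process in which annexins seal wounds, the genes past the rule were Dysf and 3 genes of caveolae, small pits of that membrane. Of 17 genes, 15 were detected, 4 passed the rule toward fibroblasts and none toward macrophages, beside 14.3% and 8.77% of all genes at 5 TPM or more. The median log2 ratio was 0.55, beside 0.28 over all genes. Those 4 were the caveola genes Cav1 at 1373 TPM against 3.52 and Cavin1 at 407 against 1.71, Ehd2, which encodes the ATPase at the caveola neck, at 123 against 1.19, and Dysf, encoding the repair protein dysferlin, at 24.0 against 0.459. Muscle markers, which dysferlin accompanies in muscle, were higher in fibroblasts in 2 of 6 genes and summed to 77.0 TPM against 0.995. Most of that sum was Acta1 at 70.8 TPM against 0.721, and Des stood at 6.11 against a listed 0. Ckm at 0.0699 against 0.258 and Myh3 at 0 against 0.0161 leaned toward macrophages. Myod1 and Myog were at 0 in both libraries. The part of these markers' cells in the Dysf value was not tested. The other 11 detected repair genes passed the rule in neither direction.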

How the data were processed

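RNA of 1 embryonic fibroblast and 1 macrophage library was read in pairs of 76 bases after a stranded poly(A) preparation, per the labels' protocols. The submitters' processing notes name kallisto 0.43.1 with build GRCm38; for the transcript set, strand setting and filters nothing is stated in the sources used here. Values as deposited are TPM by their range and totals, since no unit is named. TPM divide by transcript length and by the library's total, so a few very high genes lower all others, and they keep no depth.

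Rows sharing a symbol were added (34456 rows, 34295 genes; no annexin was on several rows). Log2 ratios used TPM plus 1. The size rule was 4-fold with at least 5 TPM, and 1 TPM or more counted as detected. No test was possible with 1 library a group, and protein features, which had been planned, were not analysed here. The calling code was run on simulated libraries with large changes set in well-expressed genes and little noise. That run checks the code only and does not cover low values or the spread between real libraries. Alternatives were other pseudocounts, minimums, fold limits and scalings, and the highest single row. The work used Python 3.11.15 and pandas 2.3.3. Gene positions are from GENCODE M21 and promoters from RefSeq (GRCm38.p6).

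All members were named. Of each other list, up to 4 genes past the rule with the highest TPM were named, or up to 2 where none passed, with S100a10, S100a11, Fpr1 and Fpr2 in any case, and the 2 genes nearest to each of the 3 highest members. Markers, Gm2260, Gm2274, A630023A22Rik and Anxa10 were named after their values were seen. Members and lists were chosen with earlier results of these data known. A gene of the plasminogen list is not reported here and was left out of its counts.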

Additional observations from a re-analysis of the deposited data

How the results depend on the processing

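The median log2 ratio, without a pseudocount, of genes reaching 5 TPM in each library was 0.18 toward fibroblasts, and median-of-ratios scaling, which takes this shift out, lowered the log2 ratios of the annexins other than Anxa8 by about that much and moved Anxa8 from 6.09 to 5.98. No alternative tried could change an annexin's sign, so the unchanged signs are no check. The 2 scalings shifted ratios toward macrophages by less than 0.48, the smallest ratio toward fibroblasts. Anxa7, the nearest to 0, went from -0.04 to -0.22 and -0.17 under them. Anxa8 was the only annexin past the 4-fold rule with the other pseudocounts and scalings. At the 2-fold limit 2 annexins were higher in fibroblasts and 1 in macrophages. The other minimums and the highest single row could not change an annexin call. Each annexin is on 1 row, and the lowest level in the higher library was 63.5 TPM, for Anxa11. The size of the Anxa8 ratio depends on the pseudocount, with 8.16 at 0.1 TPM and 4.02 at 5 TPM, since its macrophage value is close to 0. Anxa4 came closest to the 4-fold limit without passing it, at -1.95. Of the other gene lists, which were recomputed under 4 of the alternatives as a choice made after seeing the data, partner proteins had 1 gene higher in fibroblasts under both scalings, without S100a6. With 5 TPM added, the phosphatidylserine list had 0 genes higher in macrophages and the Anxa1-linked list 1. Of 60 values recomputed under the scalings, 58 stayed within 1.5-fold of the reported ones, as did 52 of 56 with another pseudocount. These values include counts of genes past the rule, many of them 0 throughout. The scalings change each level by less than 1.5-fold, so the annexin ratios, medians and sums could not have moved further than that under them. No annexin ratio can change with the minimum, the fold limit or the treatment of repeated symbols. No paired analysis was possible because there is 1 library per group, and for the same reason no library could be left out. Without depth, low values such as that of Anxa8 in macrophages have no known precision, and detected means only a listed 1 TPM or more.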

Other observations

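Copines, a second family of proteins that bind membrane lipids in response to calcium, were low beside the annexins. Of 9 copine genes, 4 were detected at 1 TPM or more, and the family summed to 180.2 TPM in the fibroblast library and 99.3 TPM in the other, against 4425 and 3806 TPM for the annexins. A single copine gene passed the 4-fold rule, where 23.1% of all genes at 5 TPM or more did so in either direction: Cpne8 had 48.0 TPM in fibroblasts versus 1.78 in macrophages, a log2 ratio of 4.14. The copine median log2 ratio was 0.70 over the 4 detected genes, too few to describe the family.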
